A study of Rattus norvegicus with 9 samples.

Results

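Enzyme genes of prostaglandin E2 synthesis and the receptor genes of prostaglandin E2 and prostacyclin were examined in the dorsal root ganglia (DRGs) of the hind limb, where the somata of its sensory neurons lie. They were chosen by name from the deposited table, and all 10 were found among its 20413 genes. Of these, 5 encode enzymes (Ptgs1, Ptgs2, Ptges, Ptges2 and Ptges3) and 5 encode receptors (Ptger1 to Ptger4 and Ptgir). The table gives them as the genes 24693 (Ptgs1), 29527 (Ptgs2), 59103 (Ptges), 311865 (Ptges2), 362809 (Ptges3), 25637 (Ptger1), 81752 (Ptger2), 24929 (Ptger3), 84023 (Ptger4) and 292661 (Ptgir). All 10 entered the test, which covered 17187 genes.

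RNA-Seq had been carried out on the right, ipsilateral L4-6 DRGs of male Sprague Dawley rats, with 9 libraries in 3 groups of 3. The libraries were made from 3 rats of each group, and the labels do not tie a library to a rat. The control group (labelled Con, here Sham) was anesthetized and wore a cut ring around the ankle that left blood flow open. The CPIP group (chronic post-ischemia pain) wore a tight ring for some hours, so that one hind paw was starved of blood and then reperfused. The CPIP+EA group had the same ischemia and then electroacupuncture, current passed through needles at the Zusanli and Kunlun acupoints of both hind limbs, once daily for 10 days. All ganglia were collected on day 10, the rats were perfused with saline first, and no group received electroacupuncture without ischemia or needles without current.

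Arachidonic acid freed from membranes is oxidized by the cyclooxygenases to an unstable endoperoxide, which terminal synthases convert to PGE2, prostacyclin and other prostanoids. PGE2 acts on the EP receptors and prostacyclin on the IP receptor. In sensory neurons, activation of receptors that couple to Gs raises cyclic AMP and lowers the threshold of nociceptors, and blocking the cyclooxygenases is how aspirin-like drugs relieve inflammatory pain.

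The cyclooxygenase genes are shown by their promoters, because Ptgs1 is known as the constitutive and Ptgs2 as the inducible form, and their levels in the ganglion were far apart. Each window covers 250 bases before and 50 bases after the start of the gene in RefSeq on the rat assembly GRCr8, at chr3:39981169-39981468 (plus strand) for Ptgs1 and chr13:64713813-64714112 (plus strand) for Ptgs2. Capitals mark matches, on either strand, to any of the 6 motifs searched.

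Ptgs1: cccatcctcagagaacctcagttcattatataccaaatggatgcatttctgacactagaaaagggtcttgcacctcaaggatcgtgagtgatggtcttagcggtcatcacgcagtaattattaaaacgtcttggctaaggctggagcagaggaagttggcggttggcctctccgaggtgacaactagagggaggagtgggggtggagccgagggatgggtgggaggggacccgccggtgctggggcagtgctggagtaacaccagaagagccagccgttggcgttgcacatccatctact
Ptgs2: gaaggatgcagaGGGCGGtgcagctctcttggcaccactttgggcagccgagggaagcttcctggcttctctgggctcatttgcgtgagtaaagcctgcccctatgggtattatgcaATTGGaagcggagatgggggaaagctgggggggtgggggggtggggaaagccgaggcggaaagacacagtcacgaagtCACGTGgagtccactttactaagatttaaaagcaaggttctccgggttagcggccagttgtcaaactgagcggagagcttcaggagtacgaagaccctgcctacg

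The motifs were the TATA box (TATAAA), the core of the cAMP response element (TGACG), the GC box (GGGCGG), the CCAAT box (CCAAT), the E-box (CACGTG) and the AP-1 site (TGAGTCA), none of which lies within another. The Ptgs2 window held a GC box 238 bases before the start, a CCAAT box on the opposite strand (printed as attgg) 133 bases before it and an E-box 55 bases before it, whereas the Ptgs1 window held no match. Over the 33469 promoters of the same length, 33.1% held a GC box, 37.5% a CCAAT box and 6.42% this E-box. RefSeq had an entry for 9 of the 10 genes.

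Levels spanned a wide range. FPKM, the fragments counted for a gene per kilobase of its length and scaled to what was mapped in the library, allows levels to be compared between genes. Ptges3, whose product p23 is both a cytosolic PGE synthase and a co-chaperone of Hsp90, had a mean level of 119 FPKM and exceeded 96.0% of the genes tested. Ptgir followed at 17.4 FPKM and Ptges2, a membrane-associated PGE synthase, at 9.76 FPKM. Below them came Ptger4 at 4.51, Ptger3 at 3.99 and Ptger1 at 3.58 FPKM, then Ptgs1 at 2.34, Ptger2 at 2.09 and Ptges, the inducible microsomal PGE synthase, at 1.93 FPKM. Ptgs2 was last at 0.231 FPKM, above 6.23% of the genes tested.

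The ranges over the 9 libraries did not overlap between Ptges3 and Ptgir, Ptgir and Ptges2, Ptges2 and Ptger4, Ptger1 and Ptgs1, or Ptges and Ptgs2. The ranges of Ptger4, Ptger3 and Ptger1 overlapped each other in turn, as did those of Ptgs1, Ptger2 and Ptges, so that the order within these trios was not larger than the spread. Ptger4 exceeded Ptger3 in 7 of 9 libraries, the exceptions being Sham replicates 2 and 3, and the order of the means in Sham was Ptger3 (4.46 FPKM), Ptger1 (3.44) and Ptger4 (3.23). The place of Ptger4 in the pooled order thus rests on the groups with ischemia. Ptgs1 exceeded Ptger2 in 5 of 9 libraries. The spread was narrow for Ptges3, whose highest library was 1.17 times its lowest, and widest for Ptgs2, with 2.54 times.

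**Figure D1:**
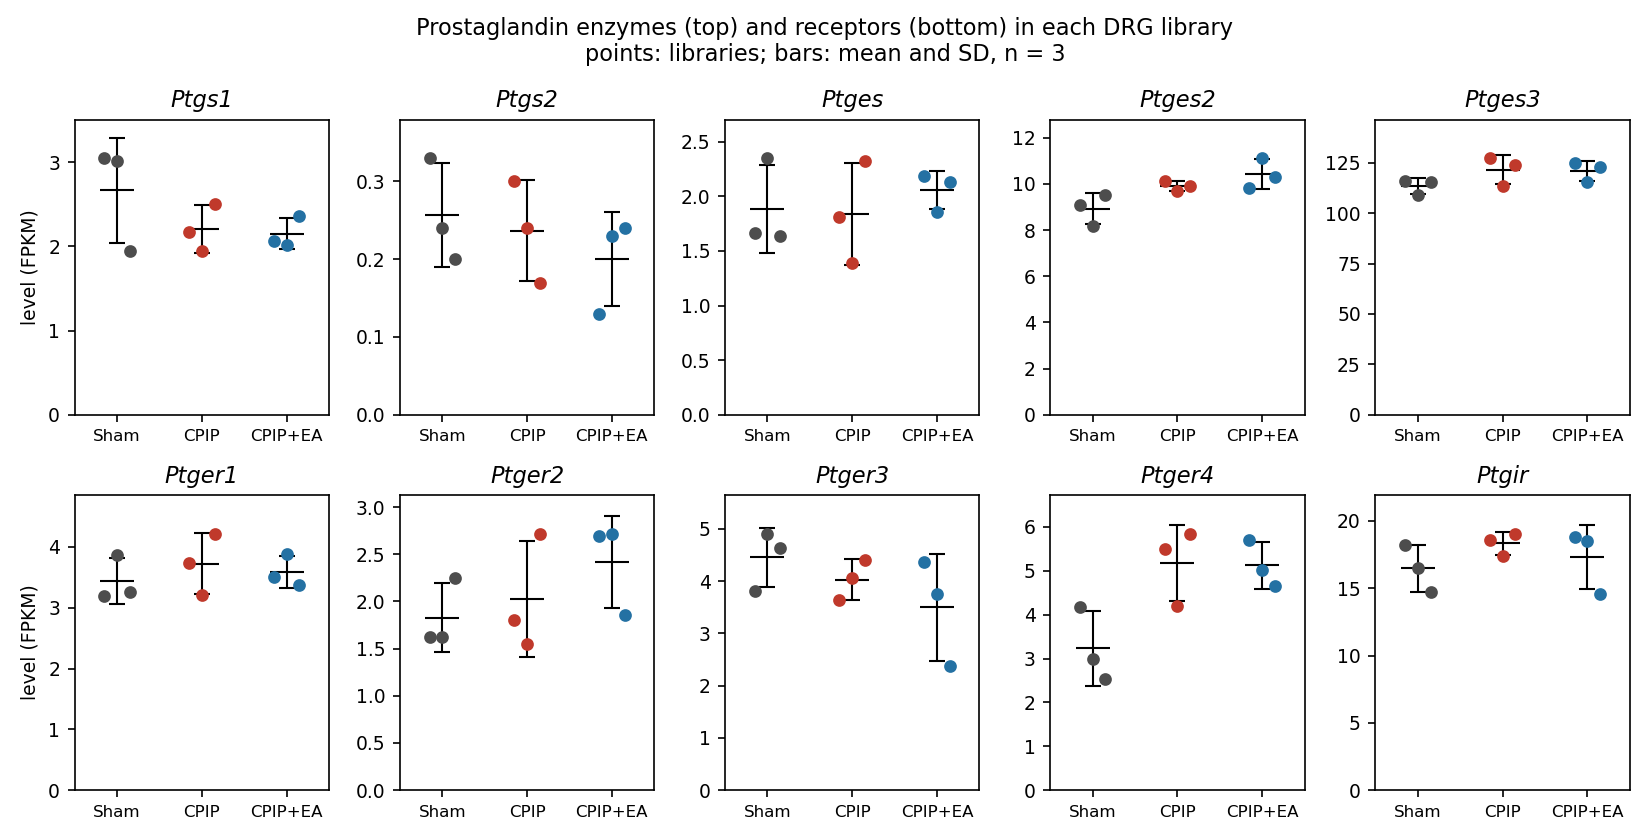
FPKM of the 5 enzyme genes (top row) and the 5 receptor genes (bottom row) in each library, with a linear y axis from 0 in each panel; points are libraries, bars the mean and SD of 3 libraries. The CPIP and CPIP+EA points of Ptger4 (4.2 to 5.85 FPKM) and of Ptges2 (9.71 to 11.12 FPKM) all lie above the Sham points, and the groups overlap in the other panels.

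Differences were tested as log2(FPKM + 0.5) with limma in 1 fit over the 9 libraries, and calls needed both a Benjamini-Hochberg adjusted p under 0.01 and a change of 1.5-fold or more in either direction, the threshold for DEGs in the paper. Of the 10 genes, 0 were called between CPIP and Sham, where 0.355% of all genes tested were, and 0 between CPIP+EA and Sham, where 0.483% were. With CPIP+EA against CPIP, 0 of the 10 and 0% of all genes were called (738 genes had an unadjusted limma p under 0.05). The paper reported DEGs at that threshold both between CPIP+EA and CPIP and between CPIP and Sham. Those rest on its own Q-values, which were not used here, so the calls here do not stand in for them. At an unadjusted limma p under 0.05 there was 1 of the 10 between CPIP and Sham (background 8.66%), 0 between CPIP+EA and CPIP (4.29%) and 2 between CPIP+EA and Sham (12.2%). Fold changes were taken with 0.5 FPKM added, so that those of low genes such as Ptgs2 are understated and their intervals narrowed.

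Because 3 libraries per group leave room for missed differences, the intervals are as informative as the calls. Between CPIP and Sham, the 95% interval of the fold change stayed within 1.5-fold in either direction for 9 of the 10 genes, the exception being Ptger4. For CPIP+EA against CPIP this held for 8 genes, with Ptger2 and Ptger3 reaching further. For CPIP+EA against Sham it held for 6 genes, and Ptgs1, Ptger2, Ptger3 and Ptger4 reached further. These counts depend on the value added before the log. With 0.1 FPKM added, the interval stayed within 1.5-fold for 5, 6 and 4 genes in the same 3 comparisons, and with 1 FPKM added for 9, 10 and 7. With 0.1 FPKM the genes added to those reaching further were Ptgs1, Ptgs2, Ptger2 and Ptger3 for CPIP against Sham, Ptgs2 and Ptges for CPIP+EA against CPIP, and Ptgs2 and Ptges for CPIP+EA against Sham. The comparisons that share the CPIP or the Sham libraries are not independent of each other.

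**Figure D2:**
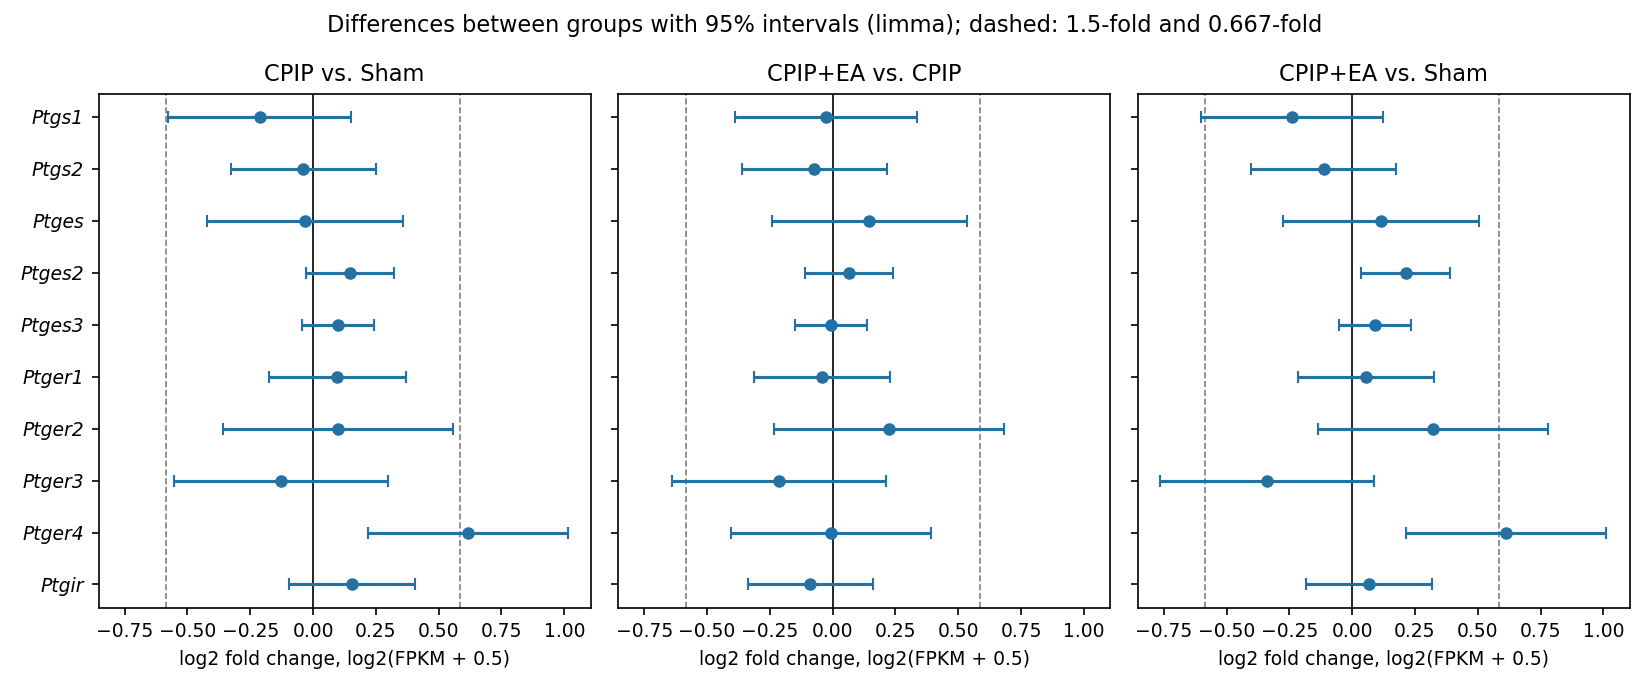
Log2 fold change of each gene on the log2(FPKM + 0.5) scale (x axis) in the 3 comparisons, with 95% intervals from limma; dashed lines mark 1.5-fold in either direction. The interval of Ptger4 excludes 0 against Sham in CPIP and in CPIP+EA, and that of Ptges2 excludes 0 in CPIP+EA against Sham.

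Ptgs1 encodes cyclooxygenase-1, which makes prostanoids in many resting tissues and in platelets. Its level was 3.05, 3.01 and 1.95 FPKM for Sham, 2.17, 1.94 and 2.51 for CPIP and 2.07, 2.02 and 2.36 for CPIP+EA. Sham replicates 1 and 2 were the highest of all, but the third Sham library was among the lowest, so the groups overlapped. The fold change was 0.86 between CPIP and Sham (95% interval 0.67 to 1.11, limma adjusted p of 0.843) and 0.98 between CPIP+EA and CPIP (0.76 to 1.26, limma adjusted p of 0.996). Without Sham replicate 3 it had a log2 fold change of -0.39 for CPIP against Sham (limma p of 0.0173, adjusted p of 0.449), against -0.21 with all libraries, and it shrank to -0.12 without Sham replicate 1, -0.13 without Sham replicate 2 and -0.14 without CPIP replicate 2. Since platelets carry this enzyme, the summed level of the platelet markers Pf4, Ppbp, Itga2b and Gp9 was read beside it. It lay between 8.34 and 25.4 FPKM for Sham, 8.2 and 8.67 for CPIP and 6.75 and 32.5 for CPIP+EA, with its highest values in CPIP+EA replicate 3, where Ptgs1 was at 2.36 FPKM, and in Sham replicate 2, where it was at 3.01 FPKM. Ppbp was at 0 in 3 of the 9 libraries and Gp9 in 5.

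Ptgs2 encodes cyclooxygenase-2, the target of the coxib drugs. It had 0.33, 0.24 and 0.2 FPKM for Sham, 0.3, 0.24 and 0.17 for CPIP and 0.13, 0.23 and 0.24 for CPIP+EA. The groups overlapped throughout, and all values were low enough that rounding to 2 decimals is a visible part of them. The fold change was 0.97 between CPIP and Sham (95% interval 0.80 to 1.19) and 0.95 between CPIP+EA and CPIP (0.78 to 1.16), with limma adjusted p of 0.978 and 0.996. All values of Ptgs2 were below the 0.5 FPKM added, which largely sets these intervals, and with 0.1 FPKM added they ran from 0.60 to 1.48 and from 0.57 to 1.39. In each library Ptgs1 exceeded Ptgs2, by 7.23 to 15.9 times. Ptgs2 therefore made up 8.82 ± 1.26% of the summed cyclooxygenase FPKM for Sham, 9.83 ± 3.07% for CPIP and 8.45 ± 2.26% for CPIP+EA (SD, n = 3 each).

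The genes whose pattern over the 9 libraries was most like that of Ptgs1 were Scfd2, Slc25a33 and Tmem230, with a Pearson r of log2(FPKM + 0.5) of 0.951, 0.926 and 0.910. For Ptgs2 they were Exosc2, Zfp608 and Satb1, with r of 0.918, 0.896 and 0.881. These are the highest values among 13913 genes with a mean of at least 1 FPKM (13914 for Ptgs2), in 9 libraries that share their groups, and are given as a description.

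The terminal PGE synthases differed little between groups. Ptges had 1.66, 2.35 and 1.64 FPKM for Sham, 1.81, 1.39 and 2.32 for CPIP and 2.19, 1.86 and 2.13 for CPIP+EA, and its groups overlapped in each comparison. Its fold change was 0.98 between CPIP and Sham (95% interval 0.75 to 1.28) and 1.11 between CPIP+EA and CPIP (0.85 to 1.45), with limma adjusted p of 0.986 and 0.996. On the log2 scale the latter was 0.15 with all libraries, 0.0020 without CPIP replicate 2 and 0.29 without CPIP replicate 3. Ptges3 had 115.87, 108.92 and 115.47 FPKM for Sham, 127.32, 113.51 and 123.7 for CPIP and 124.94, 115.22 and 122.67 for CPIP+EA. Its replicates were close enough to bound its fold change to 0.97 to 1.18 for CPIP against Sham and to 0.90 to 1.10 for CPIP+EA against CPIP, the tightest intervals of the 10 genes. The former was 0.098 on the log2 scale, and 0.063 without CPIP replicate 1.

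Ptges2 was the synthase with the clearest order of libraries. It had 9.09, 8.18 and 9.52 FPKM for Sham, 10.14, 9.71 and 9.93 for CPIP and 9.84, 11.12 and 10.31 for CPIP+EA. All 6 libraries from rats with ischemia were above the 3 Sham libraries, a pattern shown by 2 of the 10 genes, Ptges2 and Ptger4, and by 4.05% of all genes tested. The difference was small, with a fold change of 1.11 between CPIP and Sham (95% interval 0.98 to 1.25, limma p of 0.0917, adjusted p of 0.692) and 1.16 between CPIP+EA and Sham (1.03 to 1.31, limma p of 0.0232, adjusted p of 0.307). From CPIP to CPIP+EA it was 1.05 (0.93 to 1.18). That log2 fold change was 0.066 with all libraries, 0.020 without CPIP+EA replicate 2 and 0.10 without CPIP+EA replicate 1. On the log2 scale the difference for CPIP against Sham was 0.15 with all libraries and 0.089 without Sham replicate 2. For CPIP+EA against Sham the unadjusted limma p ran from 0.0164 to 0.0954 and was under 0.05 in 17 of 20 alternatives. Of the summed FPKM of the 3 synthases, Ptges2 made up 7.18 ± 0.335% for Sham, 7.46 ± 0.289% for CPIP and 7.83 ± 0.765% for CPIP+EA (SD, n = 3 each), while Ptges3 made up 89.9 to 91.5% over the 9 libraries.

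Among the receptors, Ptger4 stood out. Its product EP4 couples to Gs and raises cyclic AMP, and it is known as a PGE2 receptor of nociceptors and of immune cells. Ptger4 had 4.18, 2.99 and 2.53 FPKM for Sham, 5.49, 4.2 and 5.85 for CPIP and 5.7, 5.03 and 4.65 for CPIP+EA. All 6 libraries with ischemia were above the 3 Sham libraries, although Sham replicate 1 at 4.18 and CPIP replicate 2 at 4.2 nearly touched. The mean was 3.23 ± 0.851 FPKM for Sham, 5.18 ± 0.868 for CPIP and 5.13 ± 0.532 for CPIP+EA (SD, n = 3 each).

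The log2 fold change of Ptger4 was 0.62 between CPIP and Sham (standard error 0.18), a fold change of 1.53 with a 95% interval of 1.16 to 2.02. The limma p was 0.00660 before adjustment and 0.252 after it, so that Ptger4 was not called. Against the same Sham libraries, CPIP+EA had a fold change of 1.53 (1.16 to 2.01, limma p of 0.00696, adjusted p of 0.187). From CPIP to CPIP+EA it was 0.996 (0.76 to 1.31, limma adjusted p of 0.999), so that electroacupuncture went with no detectable difference. Of the 10 genes, groups that did not overlap were found for 2 between CPIP and Sham (background 15.9%), for 0 when CPIP+EA was set against CPIP (8.23%) and for 2 between CPIP+EA and Sham (16.2%).

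The log2 fold change of Ptger4 between CPIP and Sham lay between 0.48 (without Sham replicate 3) and 0.79 (without Sham replicate 1) over 20 alternative settings, and its adjusted limma p between 0.120 and 0.604. The unadjusted p was under 0.05 in all 20. With 1 library left out, the adjusted p was lowest without Sham replicate 1.

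The ganglion is a mixture of cells, and in such a sample fewer cells of a type and less RNA per cell cannot be told apart. All 7 sensory neuron markers (Tubb3, Rbfox3, Isl1, Prph, Nefh, Calca and Scn10a) were present in each library, and their summed level overlapped between the groups, at 4018 to 4624 FPKM for Sham, 4333 to 4842 for CPIP and 4002 to 5088 for CPIP+EA. Single markers differed in opposite directions. Tubb3 and Prph were higher in all 6 libraries with ischemia than in Sham (Tubb3 at 1359 to 1817 against 1079 to 1299 FPKM), and Rbfox3 and Scn10a were lower in all 6 (Rbfox3 at 27.5 to 42.9 against 46.7 to 57.3 FPKM, Scn10a at 32.8 to 57.8 against 62.3 to 71.5 FPKM). None of the 7 was called, and the limma p of Tubb3 was 0.0132 for CPIP against Sham (adjusted p of 0.351). The summed level of the satellite glia markers Fabp7, Kcnj10, Cdh19 and Apoe was, like Ptger4 and Ptges2, higher in all 6 libraries with ischemia than in the 3 Sham libraries, with 3510 to 3628 FPKM for Sham, 3669 to 4027 for CPIP and 3927 to 4117 for CPIP+EA, most of it Apoe, and 0 of these 4 genes were called. Fabp7 and Kcnj10 had log2 fold changes of -0.45 and -0.24 for CPIP against Sham. They were 0.71 and 0.18 for CPIP+EA against CPIP (limma p of 0.0148 and 0.137, adjusted p of 0.996 for both), where all 4 satellite glia markers had higher means in CPIP+EA. The 6 macrophage markers (Cd68, Aif1, Csf1r, Cd163, Mrc1 and C1qa) summed to 73.5 to 90.0 FPKM for Sham, 85.1 to 103 for CPIP and 80.7 to 147 for CPIP+EA, and overlapped. Aif1 alone was higher in all 6 libraries with ischemia than in Sham (17.9 to 30.7 against 16.9 to 17.4 FPKM). Cd163 and Mrc1 had lower means in CPIP and in CPIP+EA than in Sham. For CPIP+EA against Sham the limma p was 0.0438 for Aif1 and 0.0497 for C1qa (adjusted p of 0.391 and 0.408). Endothelial (36.8 to 56.9 FPKM), smooth muscle (69.8 to 115), fibroblast (428 to 1040) and mast cell (14.9 to 30.3) marker sums overlapped between CPIP and Sham. All 4 fibroblast markers (Dcn, Lum, Col1a1 and Pdgfra) had lower means in CPIP and in CPIP+EA than in Sham, with 1 and 3 of them at an unadjusted limma p under 0.05. Lum was at 105 to 119 FPKM for Sham, 80.6 to 83.4 for CPIP and 56.2 to 91.3 for CPIP+EA (limma adjusted p of 0.323 for CPIP and 0.0839 for CPIP+EA, each against Sham). Neutrophil (27.6 to 535 FPKM), erythroid (245 to 2347) and skeletal muscle (6.66 to 95.5) sums varied more, and the last peaked in CPIP replicate 2. Fcer1a of the mast cell and Hba-a1 of the erythroid markers were at 0 in at least 1 library. The part of any cell type in the differences of Ptger4 and Ptges2 was not tested.

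The genes with the pattern most like that of Ptger4 over the 9 libraries, a list made after its values were seen, were Aqr, Arhgap36 and Sel1l3, with a Pearson r of 0.969, 0.968 and 0.965. In all, 63 genes had an r above 0.9 with Ptger4, against 6 for Ptgs1 and 1 for Ptgs2. These counts are a description, since the libraries share their groups and no such count was made for other genes.

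Ptger3, whose product EP3 couples to Gi and lowers cyclic AMP, had 3.82, 4.91 and 4.64 FPKM for Sham, 3.63, 4.05 and 4.41 for CPIP and 4.37, 3.75 and 2.37 for CPIP+EA. The groups overlapped, and the lowest value by far was CPIP+EA replicate 3. Its fold change was 0.92 between CPIP and Sham (95% interval 0.68 to 1.23) and 0.86 between CPIP+EA and CPIP (0.64 to 1.16), with limma adjusted p of 0.949 and 0.996. The log2 fold change for CPIP against Sham was -0.13 with all libraries and ran from -0.22 without Sham replicate 1 to -0.060 without Sham replicate 2. The log2 fold change between CPIP+EA and CPIP was -0.21 with all libraries and 0.0098 without CPIP+EA replicate 3. Between CPIP+EA and Sham it was -0.34 with all libraries and -0.12 without that library. CPIP+EA replicate 3 also had the lowest sum of sensory neuron markers (4002 FPKM) and the highest sums of neutrophil (535 FPKM), macrophage (147 FPKM) and erythroid (2347 FPKM) markers, whose part in the level of Ptger3 was not tested. Sham replicates 2 and 3 had neuron sums nearly as low (4061 and 4018 FPKM), with Ptger3 at 4.91 and 4.64 FPKM.

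Ptger1, whose product EP1 raises intracellular calcium, had 3.19, 3.87 and 3.26 FPKM for Sham, 3.74, 3.21 and 4.22 for CPIP and 3.51, 3.88 and 3.37 for CPIP+EA, with groups that overlapped. Its fold change was 1.07 between CPIP and Sham (95% interval 0.89 to 1.29) and 0.97 between CPIP+EA and CPIP (0.80 to 1.17). On the log2 scale the former was 0.097 with all libraries, 0.014 without CPIP replicate 3 and 0.19 without CPIP replicate 2. Ptger2, whose product EP2 couples to Gs like EP4, had 1.62, 1.62 and 2.25 FPKM for Sham, 1.8, 1.55 and 2.72 for CPIP and 2.69, 2.71 and 1.86 for CPIP+EA. Sham and CPIP had 1 high library each, at 2.25 and 2.72 FPKM, whereas CPIP+EA had 1 low library, at 1.86 FPKM, and the groups overlapped. Its fold change was 1.07 between CPIP and Sham (0.78 to 1.47) and 1.17 between CPIP+EA and CPIP (0.85 to 1.60), with limma adjusted p of 0.967 and 0.996. The log2 fold change from CPIP to CPIP+EA was 0.22 with all libraries, 0.087 without CPIP replicate 2 and 0.41 without CPIP replicate 3.

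Ptgir encodes the IP receptor, which couples to Gs and was the most abundant receptor gene of the set. It had 18.23, 16.51 and 14.71 FPKM for Sham, 18.58, 17.37 and 19.06 for CPIP and 18.83, 18.54 and 14.59 for CPIP+EA. The groups overlapped, and the lowest library was again CPIP+EA replicate 3. The fold change was 1.11 between CPIP and Sham (95% interval 0.94 to 1.32) and 0.94 between CPIP+EA and CPIP (0.79 to 1.12), with limma adjusted p of 0.829 and 0.996. On the log2 scale the former was 0.15 with all libraries and 0.077 without Sham replicate 3.

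In the make-up of the EP receptor transcripts, the mean share of Ptger4 was higher and that of Ptger3 lower in both groups with ischemia than in Sham. An exact permutation test of 3 against 3 libraries cannot give a p under 0.1, so the shares are given as a description. Shares of the same sum are not independent, and a higher level of Ptger4 by itself lowers those of the other EP receptors. Ptger4 made up 32.6, 22.3 and 19.95% of the summed FPKM of the 4 EP receptors for Sham, 37.4, 32.3 and 34.0% for CPIP and 35.0, 32.7 and 38.0% for CPIP+EA. Sham replicate 1 lay within the CPIP range and the other Sham libraries below it. Ptger3 made up 29.8, 36.7 and 36.6% for Sham, 24.8, 31.1 and 25.6% for CPIP and 26.9, 24.4 and 19.3% for CPIP+EA. Ptger1 and Ptger2 made up 21.6 to 28.9% and 11.9 to 17.7% over the 9 libraries. The sum of the 4 was 13.0 ± 0.378 FPKM for Sham, 14.96 ± 2.11 for CPIP and 14.6 ± 2.11 for CPIP+EA (SD, n = 3 each).

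**Figure D3:**
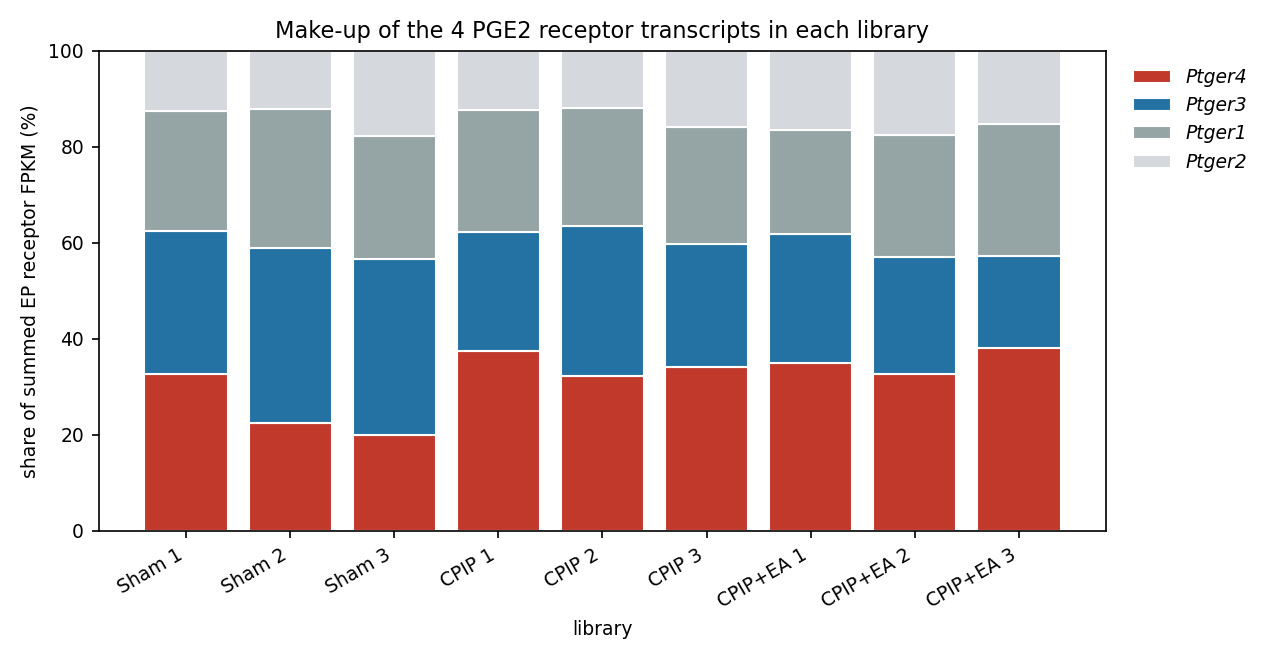
Share of each EP receptor gene in the summed FPKM of Ptger1 to Ptger4 (y axis, percent) in the 9 libraries; each bar is 1 library. Ptger4 takes 32.3 to 38.0% in the CPIP and CPIP+EA libraries and 19.95 to 32.6% in the Sham libraries.

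The other genes of the pathway, in 7 lists of 68 genes of which 62 could be tested, gave 0 calls in each comparison. Of the 62, an unadjusted limma p under 0.05 was found for 8 between CPIP and Sham (12.9%, background 8.66%), 1 between CPIP+EA and CPIP (1.61%, background 4.29%) and 12 between CPIP+EA and Sham (19.4%, background 12.2%).

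For the supply of arachidonic acid, 9 of 11 genes were tested, and their median log2 fold change for CPIP against Sham was 0.012 (-0.0064 over all genes tested). Pla2g4a, the cytosolic phospholipase that feeds the cyclooxygenases, had a log2 fold change of 0.05 for CPIP against Sham and 0.0026 for CPIP+EA against CPIP. The smallest p-values were those of Pla2g15, a lysosomal phospholipase, at 7.94 ± 0.704 FPKM for Sham, 9.27 ± 0.617 for CPIP and 9.62 ± 0.543 for CPIP+EA (SD, n = 3 each), and Faah, which breaks down anandamide, at 2.58 ± 0.449, 3.38 ± 0.395 and 3.52 ± 0.396 FPKM (SD, n = 3 each). Both had an adjusted p of 0.526 in the CPIP against Sham comparison (limma). Their smallest limma p were those for CPIP+EA against Sham, at 0.0141 and 0.0207 (adjusted p of 0.252 and 0.298). Mgll, the monoacylglycerol lipase, had 92.4 ± 13.1, 90.6 ± 14.2 and 73.7 ± 12.4 FPKM in the 3 groups (SD, n = 3 each).

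Of the other prostanoid synthases, 7 genes were tested, with a median log2 fold change of 0.14 for CPIP against Sham and -0.079 for CPIP+EA against CPIP. Ptgds, the lipocalin-type prostaglandin D synthase, was the most abundant and the most scattered, with 536, 228 and 1020 FPKM for Sham, 669, 623 and 804 for CPIP and 506, 330 and 531 for CPIP+EA. The CPIP+EA libraries of Ptgds were all below the CPIP libraries, and the limma adjusted p was 0.996. Fam213b, a prostamide and prostaglandin F synthase, had 43.0 ± 1.24, 45.5 ± 7.13 and 51.0 ± 3.32 FPKM, and Tbxas1, the thromboxane synthase, 1.37 ± 0.104, 1.67 ± 0.482 and 1.84 ± 0.0737 (SD, n = 3 each). Ptgis, which makes the ligand of the IP receptor, had a log2 fold change of -0.14 between CPIP and Sham.

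Of the other prostanoid receptors, 3 of 4 were tested and all were lower in CPIP than in Sham on average, with 0 at an unadjusted limma p under 0.05. Ptgfr, the receptor of prostaglandin F, had 7.70 ± 0.865 FPKM for Sham, 6.47 ± 0.996 for CPIP and 6.63 ± 0.688 for CPIP+EA, and Ptgdr, a receptor of prostaglandin D2, 2.99 ± 0.497, 2.47 ± 0.569 and 3.27 ± 0.752 (SD, n = 3 each). Tbxa2r, the thromboxane receptor, had 1.65 ± 0.146, 1.54 ± 0.395 and 1.45 ± 0.110 FPKM (SD, n = 3 each). For transport and breakdown, 5 genes were tested, with 0 at an unadjusted limma p under 0.05 in each comparison. Slco2a1, the prostaglandin uptake transporter, had 2.29 ± 0.339, 1.70 ± 0.128 and 1.77 ± 0.984 FPKM and Abcc4, an exporter, 5.19 ± 0.329, 5.31 ± 0.189 and 4.86 ± 0.550 (SD, n = 3 each), while Hpgd, which inactivates PGE2, was near 0 at 0.04 to 0.32 FPKM.

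Below the Gs-coupled receptors, 20 genes of cyclic AMP signalling were tested, with a median log2 fold change of -0.0046 for CPIP against Sham and -0.012 for CPIP+EA against CPIP. The smallest p-values were those of Rapgef4, Adcy2 and Prkar1a. Rapgef4 encodes Epac2, an exchange factor that cyclic AMP switches on. It had 29.14, 28.53 and 24.8 FPKM for Sham, 22.97, 21.26 and 21.94 for CPIP and 22.17, 22.03 and 23.28 for CPIP+EA, so that all libraries with ischemia were below those of Sham, a pattern shown by 3.22% of all genes tested. Its fold change was 0.81 between CPIP and Sham (limma p of 0.00186, adjusted p of 0.122). Adcy2, an adenylyl cyclase, had 6.33 ± 0.466, 7.17 ± 0.580 and 8.31 ± 0.636 FPKM, and Prkar1a, a regulatory subunit of protein kinase A, 220.5 ± 1.53, 234 ± 7.71 and 254 ± 11.5 (SD, n = 3 each), with limma adjusted p between CPIP+EA and Sham of 0.128 and 0.194.

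**Figure D4:**
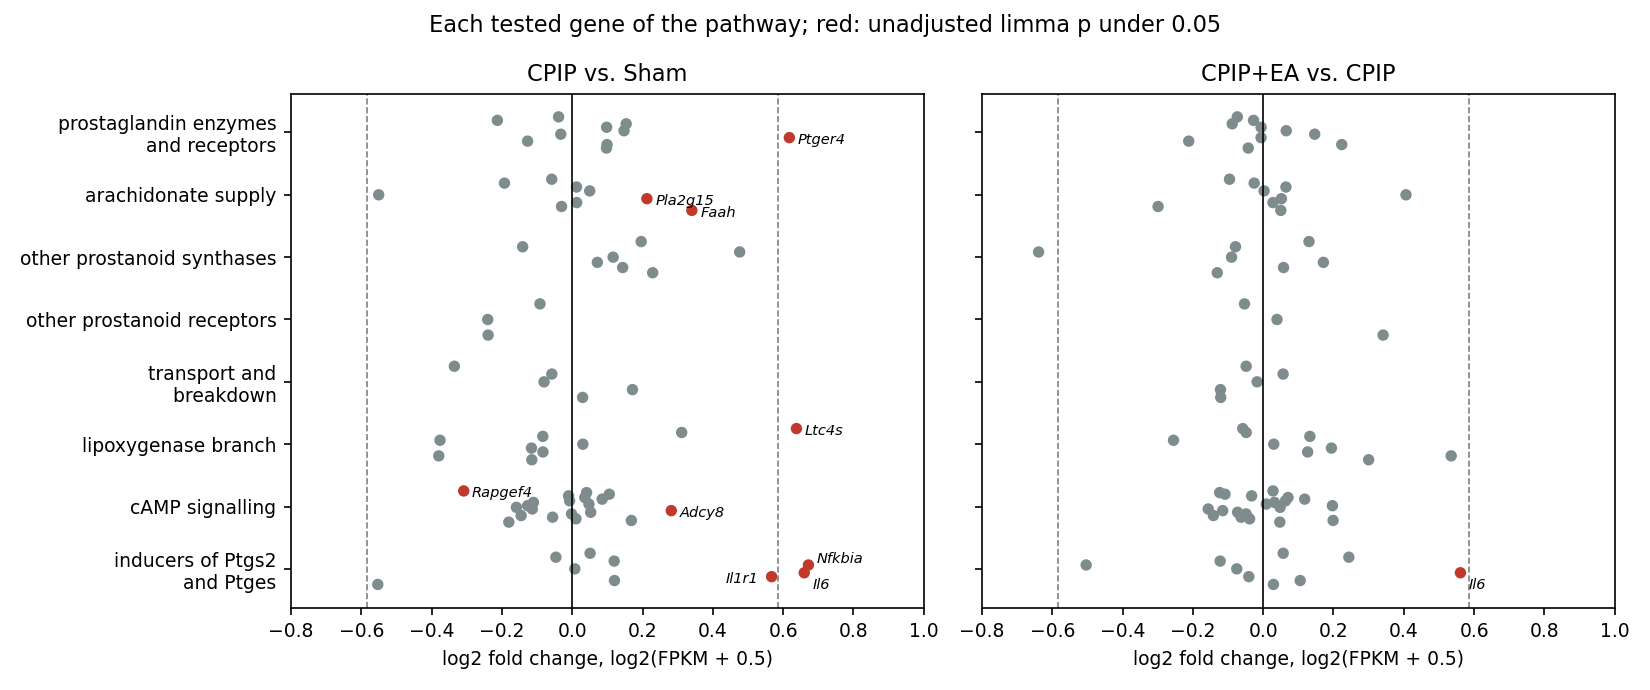
Log2 fold change of each tested gene (x axis) on the log2(FPKM + 0.5) scale, by list, for CPIP against Sham (left) and CPIP+EA against CPIP (right); each point is 1 gene, red at an unadjusted limma p under 0.05, dashed lines at 1.5-fold in either direction. Ptger4 is the red point among the 10 prostaglandin genes in the first panel, and Il6 the single red point in the second.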

How the data were processed

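RNA-Seq was analysed for 9 libraries of L4-6 DRGs, 3 per group. Reads had been cleaned with SOAPnuke, and the authors deposited 1 FPKM for each gene in each library, with 2 decimals. The aligner, genome build and annotation are not given in the sources used here. The authors also deposited log2 ratios, P-values and Q-values (p-values) for each pair of groups, which were not used. Read counts were not used here, so the error of counting could not be given and precision rests on 3 libraries per group. FPKM sums per library lay between 445647 and 482940, and 0 pairs of libraries were identical.

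Genes with a mean of at least 0.1 FPKM entered 1 limma fit of log2(FPKM + 0.5) over the 9 libraries (limma 3.58.1, R 4.3.3, eBayes with a trend, no covariate). Two-sided p-values received the Benjamini-Hochberg adjustment across every gene in the fit. The fit was tested on simulated data. Plots were made with matplotlib 3.10.9. The 10 genes were chosen by name, and these genes and the lists were chosen with earlier results of these data known. The text names the 10 genes, up to 3 genes per list with the smallest p, and the 3 genes most correlated with Ptgs1 and with Ptgs2. Pla2g4a, Ptgis, the genes like Ptger4 and the single cell type markers given with their own values were chosen after values were seen. Promoters came from RefSeq (GRCr8). Alternatives changed the pseudocount, filter, scale, variance model, block, samples or threshold. 1 marker list is not reported here.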

Additional observations from a re-analysis of the deposited data

How the results depend on the processing

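Each fold change of the 10 genes was computed under 20 alternatives (19 for Ptgs2, which a filter at 1 FPKM removes). Of 597 values, 576 kept their sign and 21 did not, and the number of the 10 genes called was 0 under each alternative. For CPIP+EA against CPIP, median centring turned the log2 fold change of Ptges3 to 0.0056 and that of Ptger4 to 0.0055. The other changes of sign came with 1 library left out, where log2 fold changes for CPIP against Sham ranged from -0.10 to 0.030 (Ptgs2), -0.18 to 0.11 (Ptges) and -0.091 to 0.24 (Ptger2). Those for CPIP+EA against CPIP ranged from -0.10 to 0.052 (Ptgs1), -0.14 to 0.00048 (Ptgs2), -0.054 to 0.029 (Ptges3), -0.13 to 0.041 (Ptger1), -0.37 to 0.0098 (Ptger3), -0.14 to 0.080 (Ptger4) and -0.15 to 0.027 (Ptgir), and for CPIP+EA against Sham from -0.011 to 0.18 (Ptgir). Over all genes, 61 were called for CPIP against Sham, 30 to 62 with 1 library left out, 26 with the replicate number as a block and 102 at an adjusted p under 0.05. For CPIP+EA against CPIP limma called 0 (738 at an unadjusted p under 0.05), 0 to 2 with 1 library left out and 1 with only those groups fitted. For CPIP+EA against Sham 83 were called, 35 to 82 with 1 library left out, 42 with the replicate block, 51 with only those groups fitted and 163 at an adjusted p under 0.05. The replicate numbers showed no clear pairing of the libraries. Deviations of same-numbered libraries correlated between -0.236 and 0.297, those of other pairs between -0.223 and 0.280, and 2 of 9 libraries correlated best with their own number. With 3 libraries per group this check cannot exclude a weak pairing. The cause of these changes was not tested.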

Other observations

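The lipoxygenase branch, which turns the same arachidonic acid into leukotrienes, gave 0 calls among 9 tested genes in each comparison. Ltc4s, the leukotriene C4 synthase, had 1.44, 0.94 and 0.64 FPKM for Sham, 1.99, 1.69 and 1.7 for CPIP and 1.65, 2.01 and 1.47 for CPIP+EA. All 6 libraries with ischemia were above the 3 Sham libraries, although Sham replicate 1 at 1.44 FPKM was close to CPIP+EA replicate 3 at 1.47. Its log2 fold change was 0.64 between CPIP and Sham (limma p of 0.00844, adjusted p of 0.288) and -0.058 between CPIP+EA and CPIP. Cysltr2, a receptor of the cysteinyl leukotrienes, had 11.3 ± 3.54 FPKM for Sham, 8.33 ± 0.0819 for CPIP and 6.997 ± 1.501 for CPIP+EA (SD, n = 3 each), with a limma adjusted p of 0.741 between CPIP and Sham. Its log2 fold change for CPIP+EA against Sham was -0.63 (limma p of 0.0169, adjusted p of 0.273). Alox12 had 0.617 ± 0.202, 0.533 ± 0.206 and 0.80 ± 0.433 FPKM (SD, n = 3 each).

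Among 9 tested genes known to induce Ptgs2 and Ptges or to carry that signal, 0 were called in each comparison, and the smallest p-values were those of Il6, Il1r1 and Nfkbia. Il1r1, the receptor of interleukin-1, had 3.4, 4.08 and 3.55 FPKM for Sham, 6.03, 5.06 and 5.98 for CPIP and 6.05, 5.35 and 5.14 for CPIP+EA, a log2 fold change of 0.57 between CPIP and Sham (limma p of 0.000516, adjusted p of 0.0566). All 6 libraries with ischemia were above the 3 Sham libraries. Il6 had 0, 0.06 and 0.06 FPKM for Sham, 0.12, 0.36 and 0.66 for CPIP and 0.53, 0.83 and 0.95 for CPIP+EA, with a limma adjusted p of 0.389 between CPIP and Sham, 0.996 between CPIP+EA and CPIP and 0.0359 between CPIP+EA and Sham, which did not pass the threshold of 0.01. Nfkbia, an inhibitor of NF-kB, had 13.0 ± 3.48 FPKM for Sham, 21.3 ± 6.93 for CPIP and 14.4 ± 2.11 for CPIP+EA (SD, n = 3 each), with a limma adjusted p of 0.517 between CPIP and Sham. Ptgs2 was at 0.13 to 0.33 FPKM in the same 9 libraries.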
